A study of Homo sapiens with 36 samples.

Results

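The genes described are 37 human genes of melanosome transport and of the lysosome, taken by symbol from a table of 34687 gene symbols in which all 37 were found. Of these, 36 had a probe above background on at least 3 arrays and were tested; BLOC1S3, a BLOC-1 subunit, was above background on 0 arrays and has no value. They fall into 20 genes of organelle transport, 15 genes of the lysosome and 2 others, CAPG and TBC1D16. The symbols are those of the deposited table.

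The study followed the established human embryonic stem cell line WA09 through 3 differentiation protocols on 36 Illumina beadchips, in 12 groups of 3 arrays. All 3 protocols shared dual SMAD inhibition, the blocking of BMP and TGF-beta signalling with LDN-193189 at 100 nM and SB431542 at 10 uM. The BE condition, labelled melanocyte differentiation, was collected on days 8 and 11 and also received the WNT agonist CHIR 99021 at 3 uM, BMP4 at 25 ng/ml and the peptide EDN3 at 100 nM. The NC condition, labelled neural crest, received the same compounds without BMP4 and EDN3, and the DSi condition, labelled central nervous system, had the dual inhibition alone; both were collected on days 3, 6, 8 and 11. Day 0 and day 1 cells formed a group each. Their labels name both inhibitors without saying whether the day 0 cultures had been given them. All cultures came from 1 line grown on mouse feeder cells before plating on matrigel, and each array measured the RNA of a whole culture, so fewer cells of a type and less RNA per cell cannot be told apart in any difference below.

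Melanosomes are pigment organelles made from the same endosomal system as lysosomes. The complexes BLOC-1, BLOC-2 and AP-3 send enzymes and membrane proteins from endosomes to the young melanosome, BLOC-3 activates the small GTPases RAB32 and RAB38 that mark this route, and the finished organelle is carried along actin by MYO5A, which MLPH ties to RAB27A. Lysosomes, which most cells hold, digest their contents with acid hydrolases behind a membrane rich in LAMP proteins, in a lumen acidified by the V-ATPase proton pump. Inherited loss of many of these genes gives combined pigment and lysosome disorders such as Hermansky-Pudlak, Griscelli and Chediak-Higashi syndromes.

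Levels are log2 normalized signals of 1 probe per gene, after background correction and quantile normalization, and differences are on the same log2 scale, where 1 is a doubling. Levels of different probes are not set against each other. A call, higher or lower, needs an adjusted p below 0.05 in limma's moderated test, adjusted over all 22825 genes tested by the method of Benjamini and Hochberg. Mean signals of 215 to 462 per array were recorded, 16055 to 19724 of 47323 probes were above background per array, and 31 of 36 arrays correlated best with an array of their own group. All 9 melanocyte lineage markers were above background on each BE day 11 array, against 7 to 9 on NC and 6 to 7 on DSi day 11 arrays. All 7 neural crest markers were above background on each NC day 11 array, against 6 to 7 on BE day 11 arrays. Detection alone thus separates these groups little. Of 8 forebrain markers HESX1 was above background on 0 DSi day 11 arrays. Nothing in the labels says that the replicates came from separate cultures, so p-values cover only the spread among these arrays, part or all of which may be technical. The title of 1 DSi array, replicate 1 of day 3, differs in form from those of the rest.

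Promoter sequence is shown first because the letters CACGTG and CATGTG, known as E-box motifs that transcription factors of the MITF and TFE family bind, recurred among these genes. A window of 250 bases upstream of the start was found in the RefSeq table of GRCh38.p14 for 25 of the 37 genes, and for 12 it was not. CACGTG, which reads the same on both strands, stood in 13 of the 25 genes (52.0%), against 7.73% of the 27305 genes with a window. CATGTG, searched on both strands, stood in 7 of 25 (28.0%), against 11.5% of all genes. The longer TCATGTG, which contains CATGTG and is known as the M-box of pigment gene promoters, stood in BLOC1S3, CD63, GPNMB and CTSA, 4 of 25 (16%), against 3.11% of all genes. CACGTG preceded by GT and followed by AC, a palindrome known as the CLEAR element of lysosomal promoters, stood in MCOLN1 alone (4.0%), against 0.374% of all genes. These counts take a gene as holding a motif if at least 1 of its windows does. The 25 genes have 50 windows, since some have several starts, while all 27305 genes have 35116, so a gene here had more windows in which to hold a match. Counted per window, CACGTG stood in 13 of the 50 (26%) and 6.34% of all windows, CATGTG in 8 (16%) and 9.42%, TCATGTG in 4 (8%) and 2.52%, and the CLEAR element in 1 (2%) and 0.308%. The matches of HPS4 and CAPG do not lie in the window listed first for the gene. The counts describe letters in these windows and carry no test.

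The 5 windows below belong to genes whose levels are described further on and hold the 3 kinds of match. They run 5′ to 3′ on the gene's own strand, with every match in capitals, and CACATGA is TCATGTG on the opposite strand. GPNMB lies at chr7:23246525-23246774, plus strand, and holds TCATGTG at 2 places. CD63 (chr12:55729010-55729259, minus strand) holds CACGTG and TCATGTG. AP1S2 (chrX:15854814-15855063, minus strand) and CTSD (chr11:1763928-1764177, minus strand) hold CACGTG once each, and MCOLN1 (chr19:7522374-7522623, plus strand) holds CACGTG at 2 places, one of them within the CLEAR element.
GPNMB: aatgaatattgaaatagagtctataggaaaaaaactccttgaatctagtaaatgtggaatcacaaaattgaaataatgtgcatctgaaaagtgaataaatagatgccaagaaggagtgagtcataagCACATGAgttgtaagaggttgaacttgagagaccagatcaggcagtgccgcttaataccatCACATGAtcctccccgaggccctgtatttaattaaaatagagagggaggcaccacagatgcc
CD63: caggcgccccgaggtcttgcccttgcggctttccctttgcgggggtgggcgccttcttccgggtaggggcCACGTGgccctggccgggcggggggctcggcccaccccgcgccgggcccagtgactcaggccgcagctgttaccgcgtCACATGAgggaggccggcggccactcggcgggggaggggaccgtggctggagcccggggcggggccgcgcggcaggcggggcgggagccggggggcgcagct
AP1S2: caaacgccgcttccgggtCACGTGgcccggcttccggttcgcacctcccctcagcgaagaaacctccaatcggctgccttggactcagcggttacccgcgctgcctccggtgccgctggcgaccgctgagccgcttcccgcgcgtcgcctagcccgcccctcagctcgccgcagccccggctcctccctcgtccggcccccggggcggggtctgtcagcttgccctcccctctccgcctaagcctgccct
CTSD: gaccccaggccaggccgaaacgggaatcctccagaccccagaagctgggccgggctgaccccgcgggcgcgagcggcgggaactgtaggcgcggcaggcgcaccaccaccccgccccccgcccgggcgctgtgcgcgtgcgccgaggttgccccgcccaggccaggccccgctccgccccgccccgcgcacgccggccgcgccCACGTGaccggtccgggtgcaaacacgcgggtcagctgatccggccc
MCOLN1: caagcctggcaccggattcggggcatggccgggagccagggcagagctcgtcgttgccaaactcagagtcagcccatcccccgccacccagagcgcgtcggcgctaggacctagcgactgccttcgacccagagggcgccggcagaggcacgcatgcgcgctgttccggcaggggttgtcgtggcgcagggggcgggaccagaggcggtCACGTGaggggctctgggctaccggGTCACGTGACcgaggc
Among the genes that changed most with the BE condition, the windows of RAB32 and MYO5A held none of the 4 motifs, nor did those of RAB27A. RAB38 and TBC1D16 are among the genes for which no window was found.

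Across the 12 groups, 20 of the 36 genes tested had their highest mean in BE day 11, a group in which 9.88% of all genes tested had theirs. Of the others, 5 were highest on day 1 and 4 on day 0. The spread of group means ran from 0.39 for HEXA, the alpha subunit of beta-hexosaminidase that was above background on only 3 arrays, to 5.54 for GPNMB. GPNMB, RAB32 and RAB38 varied more between groups than 99.6%, 99.4% and 98.3% of all genes tested. On the same scale the lysosomal genes NPC2 and LAMP1 ranked at 31.5% and 59.3%, and LAMP2, CTSA and MCOLN1 at 91.5%, 91.0% and 90.5%. The transport genes HPS4 and BLOC1S1 ranked at 19.5% and 20.1%.

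**Figure D1:**
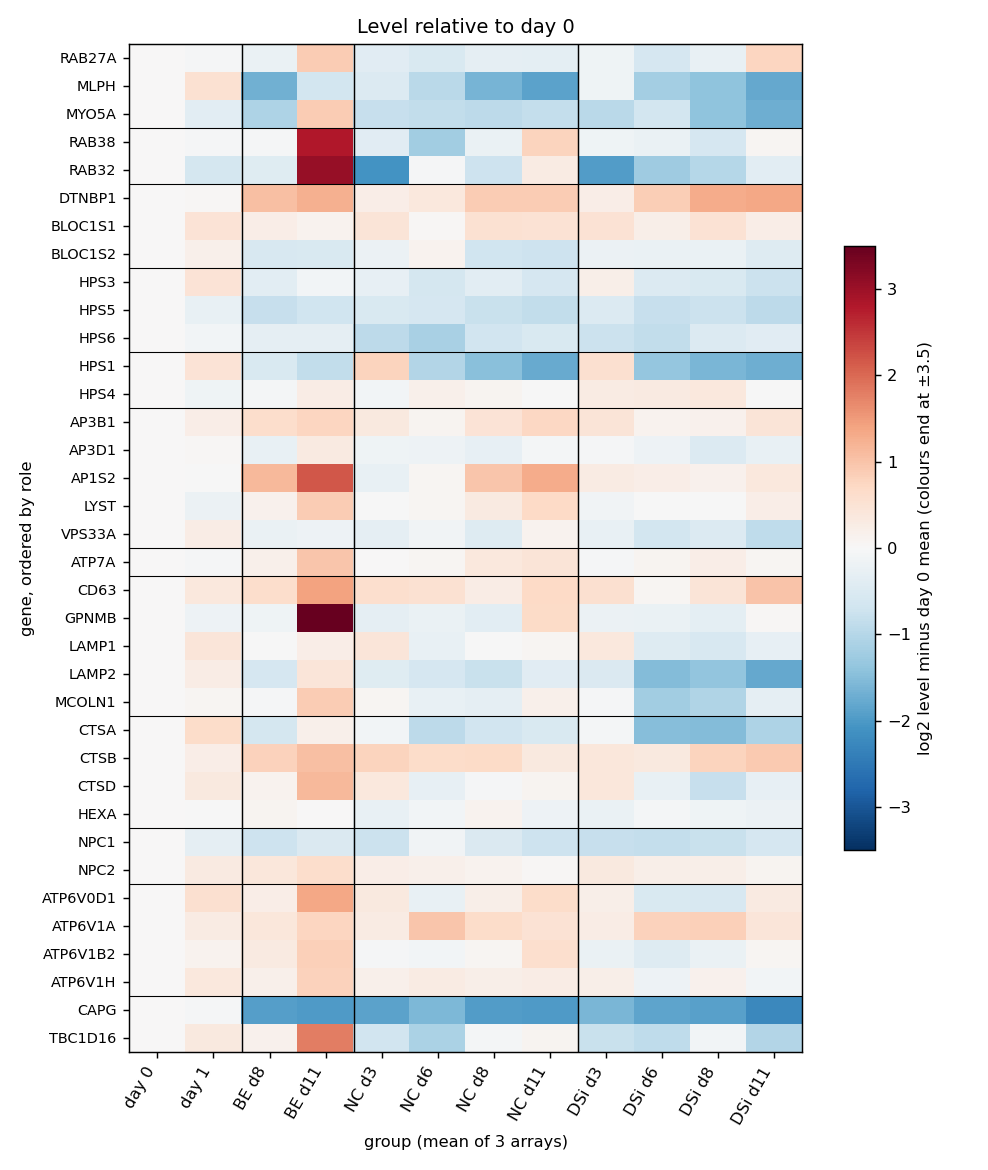
Mean log2 level of each of the 36 genes tested in each group of 3 arrays, minus its day 0 mean; rows are genes ordered by role with lines between role classes, columns are groups, red is above and blue below day 0, and colours end at 3.5. The BE day 11 column holds the darkest reds, in GPNMB, RAB32 and RAB38, and CAPG is blue in every column from day 3 on.

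The comparison of BE with NC at day 11 shows what accompanied BMP4 and EDN3 on top of the compounds that both conditions share. Of the 36 genes tested, 17 were higher in BE and 0 were lower, where 8.75% of all genes were called, 4.68% as higher and 4.07% as lower. The median difference of the 36 genes was 0.53, against -0.01 over all genes tested, and 34 of 36 differences were above 0. The called genes covered the RABs, the motor and its tethers, single adaptor and BLOC-3 genes, and lysosomal membrane proteins, hydrolases and pump subunits.

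The motor and its tethers were higher together. RAB27A, the GTPase that sits on the melanosome, had 6.34, 6.42 and 5.98 in BE and 5.20, 4.82 and 4.99 in NC. It was above background on all 3 BE arrays and on none of the NC arrays. By the group means of the probe used it was at least 2.16-fold higher in BE (difference 1.24, SE 0.27, adjusted p 0.000898). A second RAB27A probe gave -0.12, so the call rests on 1 probe, and it was lost in the mean of all probes (0.56) and in the authors' deposited values (0.16). MYO5A, the myosin Va motor, had 7.48, 7.26 and 7.23 in BE and 5.23, 5.76 and 5.89 in NC. All BE arrays lay above all NC arrays, by 1.70 (SE 0.29) with an adjusted p of 2.05e-05. MLPH, the melanophilin linker, had 5.47, 7.10 and 5.60 in BE and 4.61, 4.87 and 5.05 in NC, above background on 3 and 0 arrays. By the group means MLPH was at least 1.89-fold higher in BE (difference 1.21, SE 0.37, adjusted p 0.0280), but array 2 of BE stands well above the other BE arrays. The call was lost without NC replicate 1 (1.09), NC replicate 2 (1.22) or BE replicate 2 (0.69), and in the authors' deposited values (0.55).

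The cargo RABs showed the next largest differences after GPNMB. RAB32 had 10.64, 11.12 and 10.87 in BE and 7.84, 7.91 and 8.60 in NC. The lowest BE array lay more than 2 log2 units above the highest NC array, and the difference was 2.76 (SE 0.23), a 6.76-fold ratio with an adjusted p of 3.53e-13. RAB38 had 10.90, 11.70 and 11.23 in BE and 8.84, 9.03 and 9.89 in NC, a difference of 2.02 (SE 0.24) with an adjusted p of 6.78e-09. The groups did not overlap for either gene.

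Among the sorting complexes the picture was uneven. HPS1, which with HPS4 forms BLOC-3, the exchange factor of RAB32 and RAB38, had 6.86, 6.30 and 6.71 in BE and 5.76, 5.19 and 6.24 in NC. Its groups stood next to each other with little gap, and the difference of 0.89 (SE 0.29) had an adjusted p of 0.0464. Only 1 of its 3 probes was called, and the call was lost without NC replicate 1 (0.91), BE replicate 1 (0.78), NC replicate 2 (0.62) or BE replicate 3 (0.85). It was also lost in the authors' deposited values (0.27), in the mean of all probes (0.56) and without background correction (0.42). Leaving out the detection filter, or fitting only the 2 groups, ended it too. HPS4 did not pass, at 0.26, and of BLOC-1 and BLOC-2, 0 of 6 genes tested passed, with differences from -0.37 for BLOC1S1 to 0.50 for HPS3.

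AP1S2, a small subunit of the AP-1 coat that buds carriers from the Golgi and endosomes, had 12.06, 12.17 and 12.09 in BE and 11.14, 11.30 and 11.30 in NC. Its arrays agreed closely within each group, and the difference of 0.86 (SE 0.13) had an adjusted p of 2.43e-06, with a second probe at 0.76. The AP-3 subunits AP3B1 (0.02) and AP3D1 (0.37) did not pass, nor did LYST, the Chediak-Higashi protein (0.18), or VPS33A, a HOPS tethering subunit (-0.29). ATP7A, the copper pump that loads tyrosinase, was above background on only 4 of 36 arrays. Its values of 5.68, 5.78 and 5.03 in BE and 4.77, 4.96 and 5.21 in NC overlapped, and the difference of 0.51 (SE 0.17) was called with an adjusted p of 0.0453. That call was lost without NC replicate 1 (0.41), BE replicate 1 (0.42), NC replicate 2 (0.50) or BE replicate 2 (0.37).

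GPNMB, a glycoprotein of melanosome and lysosome membranes that resembles the fibril protein PMEL, had the largest difference of the 36 genes. It had 10.15, 10.32 and 10.01 in BE and 5.59, 5.10 and 6.29 in NC, where 2 of 3 arrays were above background. The difference was 4.50 (SE 0.23) with an adjusted p of 2.03e-19, and since the NC arrays lay at or near background its size leans on signals there. A second probe gave 4.90. TBC1D16, a GTPase-activating protein of RAB GTPases, had 9.53, 9.53 and 9.53 in BE and 8.00, 7.36 and 8.08 in NC, a difference of 1.71 (SE 0.24) with an adjusted p of 5.26e-07. Its 3 BE arrays were nearly equal and lay above every NC array. CAPG, an actin-capping protein, was above background on 0 arrays of either group.

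Of the hydrolases, CTSD, the aspartic protease cathepsin D, had 8.76, 9.11 and 8.82 in BE and 7.93, 7.54 and 8.12 in NC, with no overlap, a difference of 1.03 (SE 0.19) and an adjusted p of 0.000108. CTSB, the cysteine protease cathepsin B, had 10.13, 9.80 and 10.19 in BE and 9.56, 9.22 and 9.20 in NC, also apart, a difference of 0.71 (SE 0.15) with an adjusted p of 0.000654; a second probe gave 0.81. The other hydrolases, CTSA at 0.69 (SE 0.27) and HEXA at 0.18 (SE 0.19), did not pass, although the CTSA arrays of BE (7.29, 7.54 and 7.33) all lay above those of NC (6.72, 6.47 and 6.92).

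Of the lysosomal membrane proteins, LAMP2 had 9.33, 9.77 and 9.31 in BE and 8.72, 8.54 and 8.74 in NC. The groups stood apart, by 0.81 (SE 0.18) with an adjusted p of 0.00165, and the other 4 LAMP2 probes gave 0.22 to 0.87. CD63, a tetraspanin of late endosomes that also sorts PMEL, had 11.07, 11.25 and 10.97 in BE and 10.61, 10.35 and 10.19 in NC. Its difference of 0.71 (SE 0.20) had an adjusted p of 0.0120, and the call was lost without BE replicate 2 (0.64) or NC replicate 3 (0.62). The calcium channel gene MCOLN1 had 7.74, 7.84 and 7.77 in BE and 7.57, 6.58 and 7.09 in NC and did not pass (0.70, SE 0.25, adjusted p 0.0799), nor did LAMP1 (0.17, SE 0.15).

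The cholesterol carrier NPC2 averaged 12.64 ± 0.07 in BE and 12.05 ± 0.10 in NC (SD, n = 3 each), a called difference of 0.59, while its membrane partner NPC1 at 0.21 did not pass. The NPC2 call was lost after median scaling (0.54) and after median scaling over detected probes (0.39). Of the 4 V-ATPase subunits, ATP6V0D1, a subunit of the membrane sector, had 9.18, 9.38 and 9.26 in BE and 8.86, 8.22 and 8.64 in NC. Its difference was 0.70 (SE 0.23) with an adjusted p of 0.0481. ATP6V1H, the regulatory H subunit, averaged 9.48 ± 0.08 in BE and 8.93 ± 0.30 in NC (SD, n = 3 each), a difference of 0.55 (SE 0.17) with an adjusted p of 0.0329, and a second probe gave 0.02. Both calls lay close to the threshold, and each was lost when any of 5 of the 6 arrays was left out. The exceptions were NC replicate 1 for ATP6V0D1 and NC replicate 3 for ATP6V1H, and the differences in these leave-outs ran from 0.53 to 0.75 for ATP6V0D1 and from 0.43 to 0.58 for ATP6V1H. ATP6V1A (0.24) and ATP6V1B2 (0.23), the catalytic and nucleotide-binding subunits, did not pass.

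**Figure D2:**
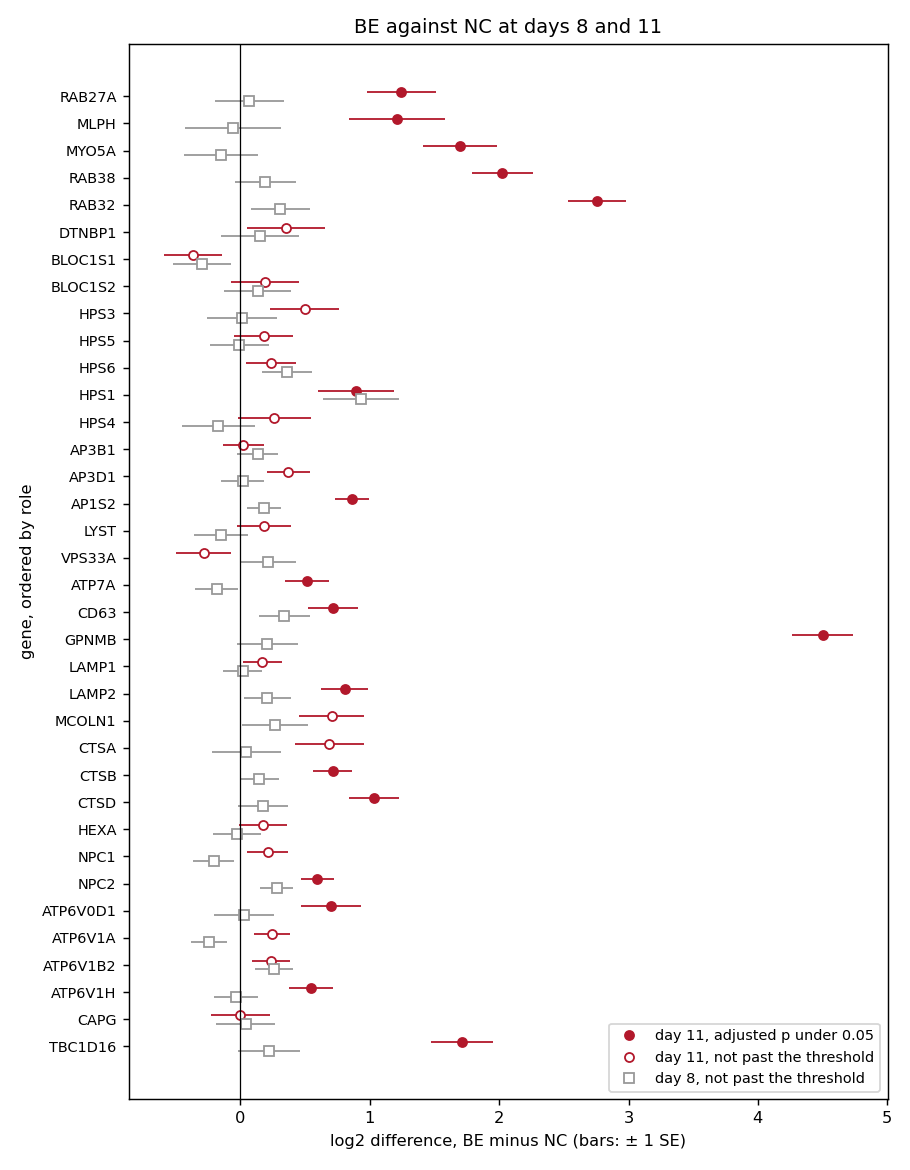
Log2 difference of BE minus NC for each of the 36 genes tested, at day 11 (circles, filled where the adjusted p was under 0.05) and at day 8 (squares, below the circle of the same gene); bars are 1 standard error, from 3 arrays per group. At day 11 there are 17 filled circles, with GPNMB, RAB32 and RAB38 farthest right, and the day 8 squares are all open.

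Markers of other cells moved with this contrast. Neuron markers were lower in BE for 6 of 7 tested, with a summed linear signal of 1620 to 2315 per array in BE and 9167 to 16481 in NC. Melanocyte lineage markers, which overlap the pigment genes, were higher for 8 of 9, with sums of 20360 to 24553 in BE and 5018 to 6908 in NC. Of mesenchyme markers 4 of 8 were higher, with sums of 6034 to 9125 in BE and 4480 to 5397 in NC, and of trophoblast and amnion markers 4 of 5 were higher, with sums of 1028 to 5059 in BE and 343 to 683 in NC. Macrophages are rich in lysosomes and GPNMB; 0 of 6 of their markers were called, the sums were 181 to 249 in BE and 164 to 222 in NC, and ITGAM and CD163 were above background on 0 arrays of either group. Of neural crest markers 1 of 7 was higher and 3 lower, with sums of 4715 to 6757 in BE and 4009 to 5118 in NC. Of 4 endoderm markers tested 1 was higher and 1 lower, with sums of 235 to 357 in BE and 1123 to 1926 in NC. Of retinal pigment epithelium markers, 1 of 4 tested was higher and 0 lower, with sums of 781 to 1170 in BE and 881 to 1082 in NC, and of forebrain markers 0 of 8 were called. The part of these cell types in the differences above was not tested.

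At day 8 the same contrast called 0 of the 36 genes in limma's test, where 1.85% of all genes were called, 1.24% as higher and 0.605% as lower; at an unadjusted p under 0.05, 2 were higher and 0 lower. The differences ran from -0.30 for BLOC1S1 to 0.93 for HPS1, with a median of 0.10. GPNMB had 4.94, 5.04 and 4.51 in BE and 4.58, 4.76 and 4.53 in NC, above background on 0 of these 6 arrays. RAB32 had 7.33, 7.52 and 7.36 in BE and 7.01, 7.07 and 7.19 in NC, and every BE array lay above every NC array, by 0.31 (SE 0.23) with an adjusted p of 0.755. RAB38 had 8.15, 8.75 and 8.39 in BE and 8.00, 7.97 and 8.75 in NC, which overlapped. HPS1 had 6.63, 7.38 and 6.83 in BE and 6.32, 5.69 and 6.04 in NC, a difference of 0.93 (SE 0.29) with an adjusted p of 0.107. MITF, the regulator of many pigment genes, was higher in BE by 1.29 (SE 0.28, adjusted p 0.00483) at day 8 and by 1.84 (SE 0.28, adjusted p 3.63e-06) at day 11. Its part in the levels of the 36 genes was not tested.

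Whether the BE to NC difference itself changed between the days was tested directly. It was larger at day 11 for 6 of the 36 genes and smaller for 0, where 2.41% of all genes were called, 1.12% as higher and 1.29% as lower. The change was 4.30 (SE 0.33) for GPNMB, 2.45 (SE 0.32) for RAB32, 1.85 (SE 0.41) for MYO5A, 1.83 (SE 0.33) for RAB38, 1.49 (SE 0.34) for TBC1D16 and 0.68 (SE 0.18) for AP1S2. GPNMB was above background on 0 of the 6 day 8 arrays and on 2 of 3 NC day 11 arrays, so no exact fold can be read from its change. For CTSD, which was called at day 11 and not at day 8, the change was 0.86 (SE 0.27) with an adjusted p of 0.0953 and did not pass. The AP1S2 call was lost under 11 of 20 alternatives, among them the authors' deposited values (0.57), the mean of all probes (0.56), no detection filter (0.68), median scaling and median scaling over detected probes. The others were 6 leave-outs (NC day 11 replicate 1, BE day 11 replicate 2, and replicates 2 and 3 of both day 8 groups), at 0.62 to 0.68.

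**Figure D3:**
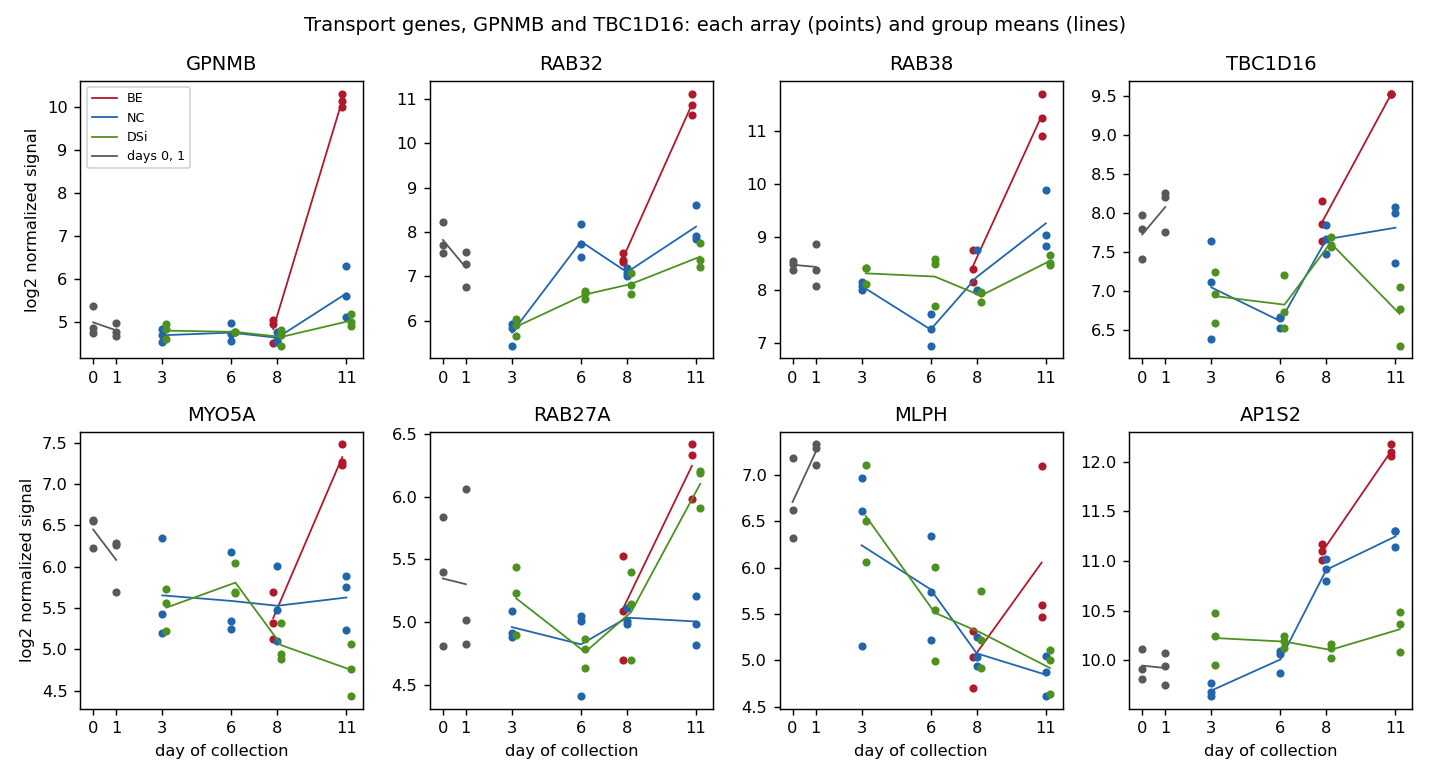
Log2 normalized signal of 8 genes on each array (points) by day of collection, with lines through the group means of 3 arrays; BE is red, NC blue, DSi green and days 0 and 1 grey, points are shifted sideways so that groups do not cover each other, and each panel has its own axis. The BE lines rise between days 8 and 11 in all 8 panels, and in the RAB27A panel the DSi day 11 points lie at the height of the BE points.

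Within the BE condition, 17 of the 36 genes were higher on day 11 than on day 8 and 0 were lower, where 9.63% of all genes were called, 4.98% as higher and 4.65% as lower. BE day 11 arrays serve in both this and the BE to NC comparison, so the counts are not independent. GPNMB, with 10.15, 10.32 and 10.01 on day 11 and 4.94, 5.04 and 4.51 on day 8, was at least 31.9-fold higher on day 11, since no day 8 array was above background (difference 5.33, SE 0.23, adjusted p 6.60e-22). RAB32 had 10.64, 11.12 and 10.87 on day 11 and 7.33, 7.52 and 7.36 on day 8 and was 11.1-fold higher (adjusted p 4.91e-16). RAB38 had 10.90, 11.70 and 11.23 on day 11 and 8.15, 8.75 and 8.39 on day 8 and was 7.18-fold higher (adjusted p 9.68e-13). MYO5A had 7.48, 7.26 and 7.23 on day 11 and 5.32, 5.12 and 5.69 on day 8, a difference of 1.95 (SE 0.29). In none of these 4 genes did the days overlap. Melanocyte lineage markers summed to 20360 to 24553 on day 11 and 5104 to 6202 on day 8, with 8 of 9 higher, and neuron markers to 1620 to 2315 on day 11 and 1019 to 1143 on day 8, with 3 of 7 higher; their part was not tested.

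The rise also took in TBC1D16, with 7.87, 8.16 and 7.64 on day 8 (1.64, SE 0.24), AP1S2, with 11.17, 11.01 and 11.10 on day 8 (1.02, SE 0.13), and RAB27A, with 5.09, 5.52 and 4.70 on day 8 (1.14, SE 0.27, on 1 of its 2 probes). Lysosomal genes rose too: CTSD, with 7.73, 7.79 and 8.09 on day 8, by 1.02 (SE 0.19), LAMP2, with 8.37, 8.69 and 8.39, by 0.99 (SE 0.18), and ATP6V0D1, with 7.95, 8.01 and 8.44, by 1.14 (SE 0.23). MCOLN1 rose by 0.93 (SE 0.25), a call lost without day 8 replicate 1 (0.86), and CD63 by 0.80 (SE 0.20). CTSB, called against NC on day 11, did not pass here: its day 8 arrays read 9.80, 9.90 and 9.73, a difference of 0.23 (SE 0.15), although a second probe was called higher at 0.90. MLPH, with 5.03, 5.32 and 4.70 on day 8, also missed the threshold at 1.04 (SE 0.37) with an adjusted p of 0.0669. The remaining called genes were AP3D1, LYST, ATP7A, ATP6V1B2 and ATP6V1H, by 0.50 to 0.79. A second ATP6V1H probe gave -0.53, and its call was lost in the mean of all probes (0.05). The LYST call was lost in the authors' deposited values (0.09), and with only the 2 groups in the fit those of LYST (0.73) and ATP6V1B2 (0.50) were lost. Median scaling ended the calls of AP3D1 (0.78) and ATP6V1B2 (0.70), and median scaling over detected probes those of LYST (0.57) and ATP7A (0.67). LYST and ATP7A had 0 day 8 arrays above background, and the calls of AP3D1, LYST, ATP6V1B2 and ATP6V1H were each lost without 1 or more arrays, among day 11 replicate 1, 2 or 3 or day 8 replicate 1, 2 or 3 (0.30 to 0.72).

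Against the DSi condition of the same day, which lacked CHIR 99021, BMP4 and EDN3, BE was higher for 21 genes on day 11 and lower for 0, where 16.5% of all genes were called, 8.23% as higher and 8.27% as lower. The median over the 36 genes was 0.66, against -0.02 over all genes. GPNMB had 5.17, 4.89 and 5.0 in DSi, above background on 0 arrays, and was at least 31.9-fold higher in BE. MYO5A, with 5.07, 4.76 and 4.43 in DSi and no array above background, was at least 4.46-fold higher. RAB32 (7.20, 7.37 and 7.76 in DSi) differed by 3.43 (SE 0.23), RAB38 (8.50, 8.66 and 8.47) by 2.73 (SE 0.24) and TBC1D16 (7.06, 6.31 and 6.77) by 2.82 (SE 0.24), all with no overlap of the groups. MLPH, with 5.01, 5.11 and 4.64 in DSi and no array above background, was at least 1.85-fold higher by the group means. That call was lost without BE replicate 2 (0.62) or DSi replicate 3 (1.00). AP1S2 differed by 1.80, with a second probe at 2.07, and kept its call under all 15 alternatives. HPS1, AP3D1, LYST, VPS33A and ATP7A were also called higher, by 0.56 to 0.90, and each lost its call under 1 or more alternatives.

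Of the lysosomal genes, LAMP2 had 7.38, 6.99 and 7.40 in DSi and was 4.65-fold higher in BE (adjusted p 2.39e-13), against 1.75-fold in the comparison with NC. All 5 LAMP2 probes were called higher than in DSi, by 0.76 to 2.22. CTSD had 7.66, 7.13 and 7.59 in DSi, a difference of 1.43 (SE 0.19). CTSA had 6.46, 5.60 and 6.40 in DSi and MCOLN1 6.84, 6.24 and 6.67, and both passed here, at 1.23 (SE 0.27) and 1.20 (SE 0.25). ATP6V0D1 had 7.86, 8.30 and 8.57 in DSi, a difference of 1.03 (SE 0.23). LAMP1, NPC2, ATP6V1B2 and ATP6V1H were also called higher, by 0.52 to 0.89. Of these, ATP6V1B2 alone kept its call under every alternative. By contrast RAB27A (0.14, SE 0.27, adjusted p 0.820), CD63 (0.40, SE 0.20) and CTSB (0.12, SE 0.15) did not pass against DSi, whose arrays read 5.91, 6.19 and 6.21 for RAB27A, 10.67, 11.02 and 10.41 for CD63 and 10.01, 9.83 and 9.91 for CTSB. NC against DSi was called lower for RAB27A and CTSB on day 11, and for CD63 the NC minus DSi difference was -0.32 (SE 0.20) and did not pass. DSi cultures also held melanocyte lineage markers on day 11, at a summed signal of 20360 to 24553 in BE and 5319 to 8978 in DSi, and forebrain and eye field markers at 525 to 693 in BE and 9556 to 13622 in DSi; their part in these differences was not tested.

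On day 8, 9 genes were higher and 1 was lower in BE than in DSi, where 10.5% of all genes were called, 5.18% as higher and 5.34% as lower. HPS1 had 6.63, 7.38 and 6.83 in BE and 6.02, 5.63 and 6.00 in DSi (1.06, SE 0.29), and the call was lost without DSi replicate 2 (0.94) or BE replicate 2 (0.85). Its other 2 probes gave -0.04 and 0.27 and were not called, and the call was lost in the authors' deposited values (0.24) and in the mean of all probes (0.43). MCOLN1 had 6.71, 6.81 and 7.05 in BE and 5.85, 5.97 and 5.74 in DSi (1.00, SE 0.25), and AP1S2 had 11.17, 11.01 and 11.10 in BE and 10.16, 10.02 and 10.13 in DSi (0.99, SE 0.13). The other higher genes, LAMP1, LAMP2, CTSA, CTSD, ATP6V0D1 and ATP6V1B2, differed by 0.55 to 0.92, and ATP6V1A was lower (-0.46). None of the RABs passed on this day. The calls of ATP6V1A, LAMP1, ATP6V1B2, ATP6V0D1 and CTSA were each lost without 1 or more arrays, among BE replicate 1 or 3 or DSi replicate 1, 2 or 3 (-0.47 to 0.91), and without DSi replicate 1 or BE replicate 3 the count was 6. After median scaling over all probes none of the 9 higher genes passed, and the lower one, ATP6V1A, did. Forebrain and eye field markers summed to 732 to 975 in BE and 8723 to 9010 in DSi, and neural crest markers to 4029 to 4799 in BE and 682 to 867 in DSi; their part was not tested.

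NC against DSi, the addition of CHIR 99021, was followed at 4 days. LAMP2 was higher in NC on days 6, 8 and 11, and AP1S2 on days 8 and 11. Of the 5 LAMP2 probes, 3 were called higher on day 6, 1 on day 8 and 4 on day 11. The day 8 LAMP2 call was lost under 9 of 15 alternatives, among them leaving out any 1 of the 6 arrays. The comparisons follow by day. On day 3 the comparison called 1 gene, AP1S2, as lower in NC, where 0.482% of all genes were called, 0.267% as higher and 0.215% as lower. AP1S2 had 9.64, 9.77 and 9.68 in NC and 10.24, 10.47 and 9.95 in DSi, a difference of -0.53 (SE 0.13). That call was lost without DSi replicate 1 (-0.52), NC replicate 1 (-0.50), DSi replicate 2 (-0.40) or NC replicate 3 (-0.52), the first of these being the array whose title differs. On day 6, 4 genes were higher and 1 was lower, where 5.39% of all genes were called, 2.67% as higher and 2.72% as lower. RAB32 had 7.73, 7.43 and 8.18 in NC and 6.66, 6.49 and 6.62 in DSi (1.19, SE 0.23), while RAB38, its close relative, was the lower gene, with 7.55, 7.26 and 6.95 in NC and 8.49, 8.57 and 7.69 in DSi (-1.0, SE 0.24). For RAB38 the call was lost without DSi replicate 2 (-0.84), and in both genes the groups did not overlap. LAMP2 had 8.48, 8.68 and 8.26 in NC and 7.22, 7.85 and 7.52 in DSi (0.94, SE 0.18), MCOLN1 had 6.86, 6.79 and 6.31 in NC and 5.21, 5.75 and 6.12 in DSi (0.96, SE 0.25), and NPC1 differed by 0.73 (SE 0.16). The MCOLN1 call was lost without DSi replicate 1 (0.72), NC replicate 1 (0.86) or NC replicate 2 (0.90). Forebrain and eye field markers summed to 1139 to 1161 in NC and 6192 to 9077 in DSi, and neural crest markers to 3198 to 5618 in NC and 732 to 958 in DSi; their part was not tested.

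On day 8, 6 genes were higher in NC than in DSi and 0 lower, where 6.70% of all genes were called, 3.37% as higher and 3.33% as lower. AP1S2, with 10.80, 11.02 and 10.92 in NC and 10.16, 10.02 and 10.13 in DSi, stood clearest, at 0.81 (SE 0.13) and an adjusted p of 1.18e-05. CTSD had 7.59, 7.59 and 7.92 in NC and 6.98, 7.17 and 6.70 in DSi, a difference of 0.75 (SE 0.19). The other 4, LAMP1, LAMP2, CTSA and ATP6V0D1, differed by 0.53 to 0.84 with adjusted p of 0.0216 to 0.0443. CTSD lost its call without DSi replicate 3 (0.63) or NC replicate 3 (0.64), and the other 4 lost theirs among DSi replicate 1, 2 or 3 or NC replicate 1, 2 or 3 (0.50 to 0.94). The count fell to 3 without DSi replicate 1 or 2, to 2 without NC replicate 2 and to 1 without replicate 3 of NC or of DSi. Forebrain and eye field markers summed to 831 to 874 in NC and 8723 to 9010 in DSi, and neural crest markers to 4141 to 5642 in NC and 682 to 867 in DSi; their part was not tested.

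On day 11, 8 genes were higher in NC than in DSi and 2 lower, where 11.1% of all genes were called, 5.56% as higher and 5.56% as lower. LAMP2 had 8.72, 8.54 and 8.74 in NC and 7.38, 6.99 and 7.40 in DSi (1.41, SE 0.18, adjusted p 6.17e-08), and its 5 probes ran from 0.36 to 1.41. A second GPNMB probe was called higher in NC, at 1.90. TBC1D16 had 8.00, 7.36 and 8.08 in NC and 7.06, 6.31 and 6.77 in DSi (1.10, SE 0.24), and AP1S2 had 11.14, 11.30 and 11.30 in NC and 10.49, 10.08 and 10.37 in DSi (0.94, SE 0.13). VPS33A differed by 0.98 (SE 0.21), MYO5A by 0.87 (SE 0.29), RAB38 by 0.71 (SE 0.24), RAB32 by 0.68 (SE 0.23) and ATP6V1B2 by 0.52 (SE 0.15). RAB27A was lower in NC, above background on 0 NC arrays (5.20, 4.82 and 4.99) and on all DSi arrays (5.91, 6.19 and 6.21), which makes it at least 1.95-fold lower by the probe used. A second RAB27A probe gave 0.14, and the call was lost in the authors' deposited values (-0.12) and in the mean of all probes (-0.48). CTSB was the other lower gene, with 9.56, 9.22 and 9.20 in NC and 10.01, 9.83 and 9.91 in DSi (-0.59, SE 0.15). NC array 3 was the highest NC array for GPNMB, RAB32, RAB38 and CTSD on day 11; without it 6 genes passed in all. RAB32 lost its call without DSi replicate 1 (0.56), DSi replicate 2 (0.64) or NC replicate 3 (0.44), and RAB38 without DSi replicate 1 (0.68), DSi replicate 2 (0.76), DSi replicate 3 (0.67) or NC replicate 3 (0.39). MYO5A lost its call without DSi replicate 2 (0.88), NC replicate 2 (0.81), DSi replicate 3 (0.71) or NC replicate 3 (0.74), and ATP6V1B2 without DSi replicate 3 (0.48) or NC replicate 3 (0.48). Forebrain and eye field markers were lower for 7 of 8, with sums of 544 to 848 in NC and 9556 to 13622 in DSi, and neuron markers had sums of 9167 to 16481 in NC and 373 to 480 in DSi; their part was not tested.

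**Figure D4:**
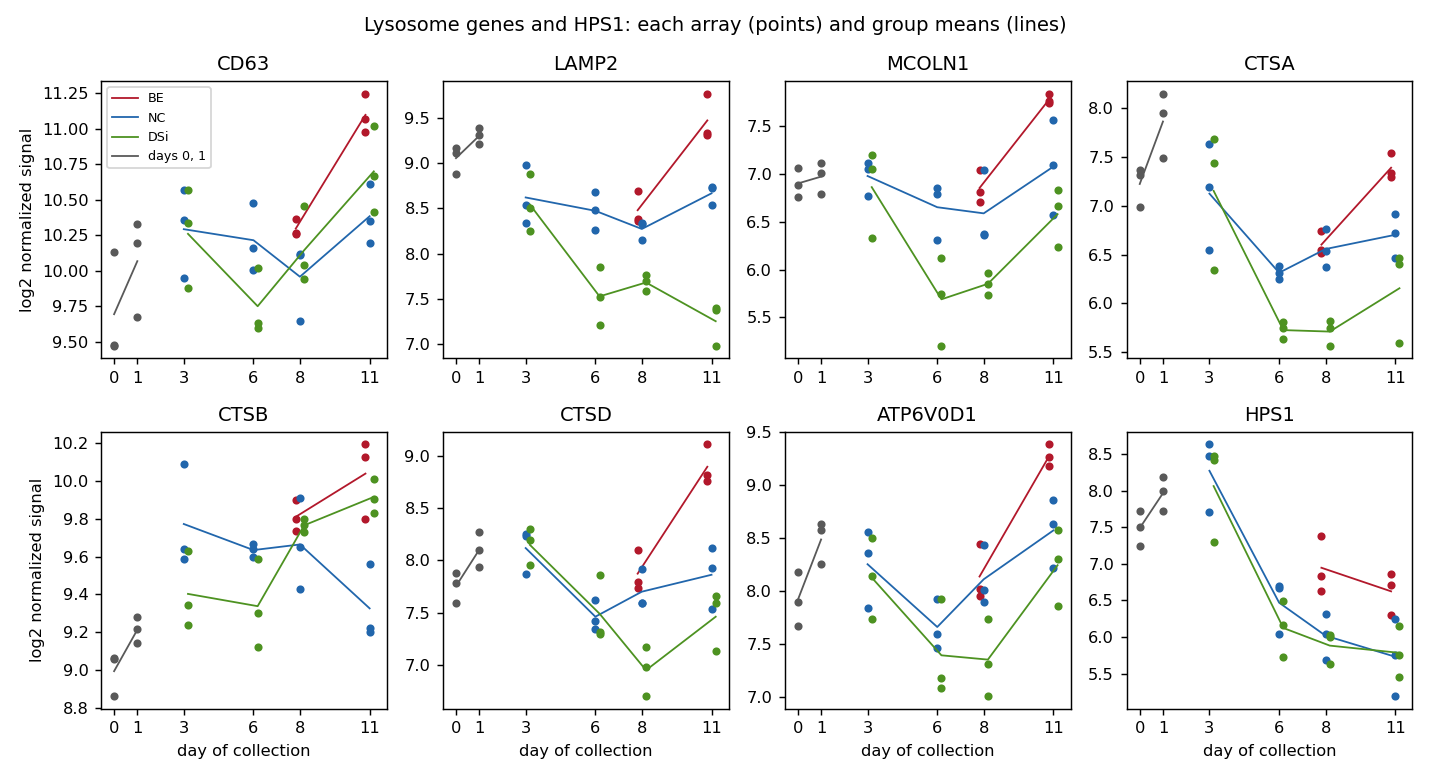
Log2 normalized signal of 7 lysosomal genes and HPS1 on each array (points) by day of collection, with lines through group means of 3 arrays; BE is red, NC blue, DSi green and days 0 and 1 grey, points are shifted sideways, and each panel has its own axis. DSi points lie lowest on days 6 and 8 in the MCOLN1 and CTSA panels, and on days 6, 8 and 11 in the LAMP2 panel.

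Against day 0, RAB32, MCOLN1, CTSD, NPC2 and ATP6V1H were called higher in BE and not called in NC or DSi. MYO5A was higher in BE and lower in NC and DSi, and TBC1D16 was higher in BE and lower in DSi. GPNMB, RAB38, LYST, ATP7A, ATP6V0D1 and ATP6V1B2 were called higher in BE and NC and not called in DSi. RAB27A and CTSB were called higher in BE and DSi and not called in NC. DTNBP1, CD63, AP1S2, AP3B1 and ATP6V1A were higher in all 3 conditions, and CAPG, HPS1, HPS5 and NPC1 were lower in all 3. In DSi the AP3B1 call was lost under 8 of 15 alternatives, with differences down to 0.07. The ATP6V1A call in DSi was lost under 4 of 15, down to 0.05. Both median scalings ended the ATP6V1A call in NC and in DSi. The 3 comparisons share the day 0 arrays, so their values are given side by side. In BE day 11, 20 genes were higher and 4 lower than on day 0, where 28.8% of all genes were called, 14.5% as higher and 14.3% as lower; the median difference was 0.74. In NC day 11, 11 were higher and 8 lower, where 29.4% of all genes were called, 15.0% as higher and 14.4% as lower; the median was 0.10. In DSi day 11, 7 were higher and 11 lower, where 27.4% of all genes were called, 13.7% as higher and 13.7% as lower; the median was -0.24. Between day 1 and day 0, 0 of the 36 genes were called by limma, where 4.41% of all genes were called, 2.41% as higher and 2.00% as lower; at an unadjusted p under 0.05, 7 were higher and 2 lower.

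Several genes were lower than on day 0 in each condition. CAPG was above background on 0 arrays of any day 11 group and had 6.59, 6.88 and 6.74 on day 0, so that it was at least 3.05-fold lower in BE, 3.04-fold in NC and 2.98-fold in DSi. HPS1, with 7.50, 7.72 and 7.25 on day 0, fell by 0.87 in BE, 1.76 in NC and 1.71 in DSi. Between these days it read 7.71, 8.47 and 8.64 in NC and 7.30, 8.42 and 8.48 in DSi on day 3, not below day 0, and 6.67, 6.04 and 6.70 in NC and 5.72, 6.49 and 6.16 in DSi on day 6, below every day 0 array. In BE 1 of the 3 HPS1 probes was called, and the call was lost without day 0 replicate 1 (-0.86), day 0 replicate 2 (-0.75) or BE replicate 2 (-0.70), in the authors' deposited values (-0.34) and in the mean of all probes (-0.60). HPS5, a BLOC-2 subunit, fell by 0.69 in BE, 0.87 in NC and 0.92 in DSi, and NPC1 by 0.51, 0.72 and 0.58. In BE, HPS5 lost its call without day 0 replicate 2 (-0.65) or BE replicate 3 (-0.55) and NPC1 without day 0 replicate 1 (-0.47), BE replicate 1 (-0.46) or BE replicate 3 (-0.45).

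DTNBP1, the BLOC-1 protein dysbindin, went the other way. It had 6.33, 6.11 and 6.30 in BE, 6.09, 5.28 and 6.31 in NC and 6.80, 5.80 and 6.52 in DSi on day 11, each above background, and 5.13, 4.98 and 4.92 on day 0, with 0 arrays above background. It was at least 2.11-fold higher in BE, 1.65-fold in NC and 2.31-fold in DSi. The NC call was lost without NC replicate 1 (0.79), day 0 replicate 2 (0.87), day 0 replicate 3 (0.84) or NC replicate 3 (0.68).

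The motor genes parted. RAB27A was called higher than on day 0 in BE (0.90) and DSi (0.76) and was not called in NC (-0.34). Its second probe gave 0.32 in BE and 0.30 in DSi, and only 1 of the 2 probes was called in each. The DSi call was lost under 8 of 15 alternatives and the BE call under 2 of 15. MYO5A had 6.56, 6.57 and 6.22 on day 0. Against day 0 it was higher in BE (0.88, SE 0.29), lower in NC (-0.82, SE 0.29), and at least 2.43-fold lower in DSi. The NC call was lost without day 0 replicate 1 (-0.77), NC replicate 1 (-0.62) or day 0 replicate 2 (-0.76), and the BE call without BE replicate 1 (0.80) or day 0 replicate 3 (0.76). MLPH, with 7.11, 7.33 and 7.30 on day 1 and 6.63, 6.32 and 7.18 on day 0, was above background on no day 11 array of NC or DSi, at least 2.97-fold lower in NC and 2.91-fold lower in DSi, and -0.65 (SE 0.37) in BE, which did not pass.

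RAB32 read lower on day 3 than on day 0, which was not tested. It had 7.71, 8.22 and 7.53 on day 0, then 5.92, 5.82 and 5.44 in NC and 6.03, 5.66 and 5.90 in DSi on day 3, and on day 11 it differed from day 0 by 3.06 (SE 0.23) in BE, 0.30 (SE 0.23) in NC and -0.38 (SE 0.23) in DSi. Only the BE difference passed. RAB38 had 8.37, 8.55 and 8.50 on day 0 and differed by 2.80 (SE 0.24) in BE, 0.78 (SE 0.24) in NC, called, and 0.07 (SE 0.24) in DSi, not called. The NC call of RAB38 was lost without NC replicate 3 (0.46). TBC1D16 had 7.41, 7.98 and 7.80 on day 0 and was higher in BE (1.80, SE 0.24), lower in DSi (-1.02, SE 0.24) and not called in NC (0.09, SE 0.24). AP1S2 had 9.91, 9.81 and 10.12 on day 0 and was higher in BE by 2.16 (SE 0.13) and in NC by 1.30 (SE 0.13); its small rise in DSi (0.37, SE 0.13) turned to -0.016 after median scaling and was not called without day 0 replicate 1 (0.35), DSi replicate 1 (0.28), day 0 replicate 2 (0.30) or DSi replicate 3 (0.34).

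GPNMB read 4.73, 4.85 and 5.37 on day 0, with 1 array above background, and stayed there in DSi (0.04, SE 0.23). In NC it was called higher by 0.68 (SE 0.23), a call that was lost without day 0 replicate 1 (0.55), day 0 replicate 2 (0.61) or NC replicate 3 (0.36). The call was also lost after median scaling, without background correction, without the detection filter and with only the 2 groups in the fit. A second probe was called higher in NC, at 1.83. In BE the difference was 5.18 (SE 0.23).

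LAMP2 moved in opposite ways on its probes. The probe used had 7.38, 6.99 and 7.40 in DSi day 11 and 9.12, 9.17 and 8.88 on day 0, a difference of -1.80 (SE 0.18). Of its 5 probes, 3 were lower in DSi than on day 0, at -1.80, -1.27 and -1.32, and 2 were higher, at 0.53 and 0.78, all of them called. LAMP2 is known for splice forms that differ in their last exon; which form each probe reads is not given in the sources used here. In BE and NC the probe used did not pass against day 0, at 0.42 (SE 0.18) in BE and -0.39 (SE 0.18) in NC, while over its 5 probes 3 were called higher in BE (0.42 to 1.65) and 2 in NC (-0.39 to 1.14).

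The hydrolases differed among themselves. CTSB, with 9.06, 9.06 and 8.86 on day 0, rose in BE (1.05, SE 0.15) and in DSi (0.92, SE 0.15), and did not pass in NC (0.33, SE 0.15). The miss in NC belongs to the probe used: a second probe gave 2.18 in BE, 1.37 in NC and 1.82 in DSi and was called higher in NC. CTSD, with 7.88, 7.79 and 7.59 on day 0, rose in BE by 1.14 (SE 0.19) and did not pass in NC (0.11, SE 0.19) or DSi (-0.29, SE 0.19). CD63, with 10.13, 9.47 and 9.48 on day 0, was higher in all 3, by 1.40 (SE 0.20) in BE, 0.69 (SE 0.20) in NC and 1.01 (SE 0.20) in DSi. CTSA, with 7.31, 7.36 and 6.99 on day 0, was called in DSi alone of the 3, as lower (-1.07, SE 0.27); its DSi arrays read 5.63, 5.81 and 5.74 on day 6 and 5.57, 5.75 and 5.82 on day 8. All 4 V-ATPase subunits rose in BE, ATP6V0D1 by 1.36 (SE 0.23) and the others by 0.74 to 0.82, and in NC 3 of 4 and in DSi 1 of 4 were called higher; ATP6V0D1 in NC lost its call without day 0 replicate 1 (0.65), NC replicate 1 (0.51), day 0 replicate 3 (0.53) or NC replicate 3 (0.62). In BE a second ATP6V1H probe gave -0.15, its call was lost in the mean of all probes (0.33), and that of ATP6V1A was lost after median scaling. Pluripotency markers summed to 371 to 543 in BE, 545 to 660 in NC and 553 to 1000 in DSi on day 11, against 10102 to 11735 on day 0, and their part in these changes was not tested.

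Other genes of the same organelles were counted from lists beside the 37. In BE against NC at day 11, 8 of 20 further V-ATPase subunits were higher and 1 lower, with a median of 0.34. The largest changes were those of ATP6V0E2, at -1.03 (SE 0.18, adjusted p 2.16e-05), and of the proteolipid subunit ATP6V0C, at 0.88 (SE 0.14, adjusted p 9.71e-06). Of 36 other lysosomal proteins 9 were higher and 0 lower, with a median of 0.30, led by the protease CTSL at 1.31 (SE 0.17, adjusted p 1.26e-07). Of 28 other transport genes 3 were higher and 1 lower, with a median of 0.11, led by SYTL2, which binds RAB27 proteins, at 2.17 (SE 0.20, adjusted p 1.98e-11). The counts stand against 8.75% of all genes called. Of 8 pigment genes 7 were higher, with a median of 3.61: TYRP1 by 5.93, MLANA by 5.43, DCT by 4.51, TYR by 4.31, SLC45A2 by 2.90, GPR143 by 2.08 and PMEL by 1.85, while OCA2 was lower at -0.62. Of the 37 genes themselves, the 15 of the lysosome had a median of 0.69 and the 19 transport genes tested one of 0.37, with 8 called higher in each.

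At day 8 the same lists gave few calls in BE against NC: 1 of 20 V-ATPase subunits was lower, and 1 of 36 lysosomal proteins, 1 of 28 transport genes and 1 of 8 pigment genes were higher, where 1.85% of all genes were called. In NC against DSi on day 11, 1 of 20 further V-ATPase subunits was higher and 1 lower, and of 36 other lysosomal proteins 2 were higher and 3 lower, where 11.1% of all genes were called. In BE against DSi on day 11 the same lists gave 10 higher and 3 lower of 20, and 16 higher and 1 lower of 36, where 16.5% of all genes were called.

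**Figure D5:**
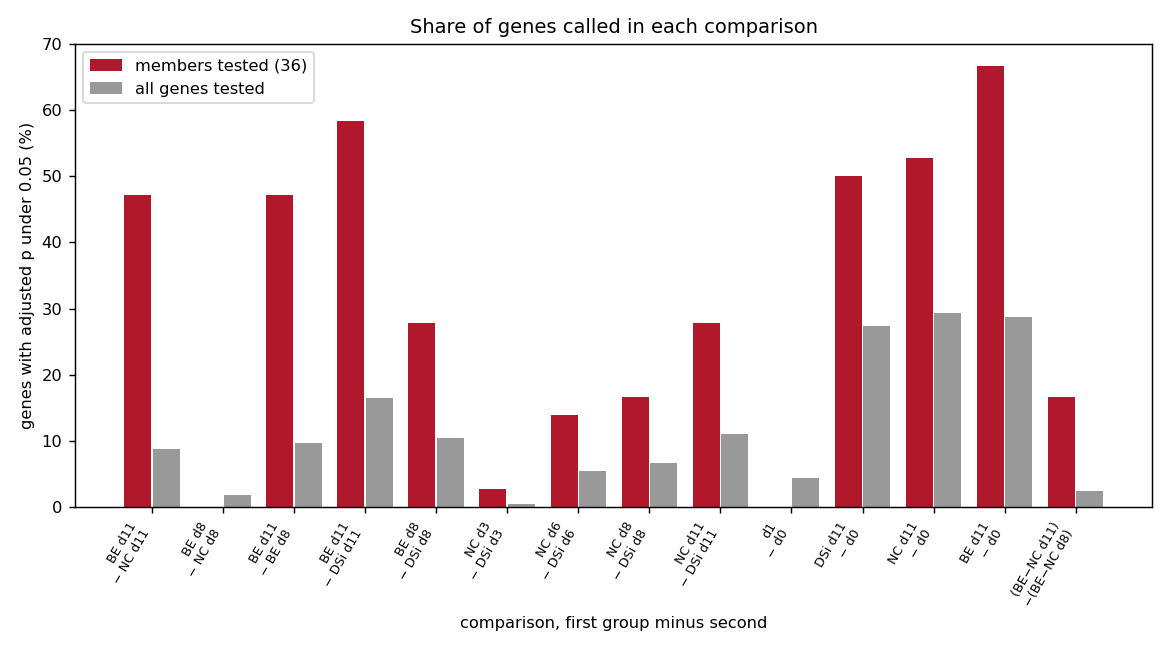
Share of the 36 genes tested (red) and of all 22825 genes tested (grey) with an adjusted p under 0.05 in each comparison; each label gives the first group minus the second, and the axis starts at 0. The red bar is higher than the grey one in 12 of 14 comparisons and at 0 in BE against NC on day 8 and in day 1 against day 0.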

How the data were processed

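Total RNA was read on 36 Illumina beadchips. Per the file headers, the deposited probe table holds a mean bead signal, an intensity not normalized between arrays, and a detection p-value for each of 47323 probes. The other deposited table holds the authors' values on the log2 scale for 34687 gene symbols; set against the signals, they were quantile normalized and not background-corrected. The submitters' processing notes name Partek; how it was used is not stated there. Since probes carry no gene names, a symbol was tied to the run of up to 17 neighbouring probes whose mean signal, through 1 monotone function per array, gave its deposited value within a root mean square of 0.01. This held for 34528 symbols, 132 more were placed by position and 27 were not tied. All 37 members were tied, 24 of them to 1 probe and 13 to several.

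Signals were corrected with limma's normexp (negative controls inferred from detection p-values, offset 16), then quantile normalized and log2 transformed. The offset compresses differences of dim probes. A probe stayed in if 3 or more arrays gave it a detection p below 0.05 (29065 did), and each gene was read from its brightest probe on average. The model held 1 mean for each group over all 36 arrays (24 residual degrees of freedom), with moderated variances, two-sided tests and Benjamini-Hochberg adjustment. For a gene above background on 0 arrays of one group, "at least" sets the mean of the other group against, per array, the higher of the gene's own level and the lowest level above background. It bounds the effect of background alone, not that of the spread among arrays, of other probes or of other processing. R 4.3.3, limma 3.58.1 and Python 3.11.15 were used, and the fit was tested on simulated data. The number of arrays limits the precision.

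The members and lists were chosen with earlier results of these data known. Genes that passed the threshold with a log2 difference of at least 1 in any comparison are given array by array, and others by ranges and counts. Non-members come from fixed lists, limited to the 3 with the largest called differences per list and comparison, plus the pigment genes. Of the listed regulators (MITF, TFEB, TFE3, TFEC and SOX10), MITF alone is described. Replicates of the same number deviated together, with every pair's correlation above 0.1, in BE against NC and against DSi on day 11 and in NC against DSi on days 3, 6 and 11; the labels do not say what a number marks, so this pairing was read from the values. Alternatives were the authors' values, other scalings, no background correction, other detection filters, the mean of all probes of a gene, only the 2 groups in the fit, a replicate block, and leaving out each replicate; median scaling over detected probes was chosen after seeing the data.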

Additional observations from a re-analysis of the deposited data

Results flagged for a closer look

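For 6 genes the difference between BE and NC was itself different on day 11 and on day 8, by limma's test of the difference of differences over all 36 arrays. In each it was larger on day 11. GPNMB differed by 4.30 on the log2 scale (adjusted p 5.15e-13), with a BE minus NC difference of 4.50 on day 11 and 0.21 on day 8. RAB32 differed by 2.45 (adjusted p 4.08e-07; 2.76 on day 11 and 0.31 on day 8), and MYO5A by 1.85 (adjusted p 0.00342; 1.70 and -0.15). RAB38 differed by 1.83 (adjusted p 0.000226; 2.02 and 0.19), TBC1D16 by 1.49 (adjusted p 0.00543; 1.71 and 0.22), and AP1S2 by 0.680 (adjusted p 0.0294; 0.86 and 0.18). GPNMB was above background on 0 of the 6 day 8 arrays and on 2 of 3 NC day 11 arrays, so no exact fold can be read from its values. The AP1S2 call was lost under 11 of 20 alternatives, 6 of them leave-outs. The day 11 groups also differed in neuron, mesenchyme and melanocyte lineage markers, whose part in these values was not tested.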

How the results depend on the processing

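Of 2335 values of called genes under the alternatives, 2011 kept their direction and stayed past the threshold, 323 kept their direction and were no longer past it, and 1 reversed: AP1S2 in DSi day 11 against day 0, at -0.016 after median scaling. In BE against NC on day 11, MYO5A, RAB38, RAB32, AP1S2, GPNMB, LAMP2, CTSB, CTSD and TBC1D16 passed under all 15 alternatives run. With median scaling over all probes the number of the 36 genes called was 1 in BE against DSi on day 8 (10 as reported), 0 in NC against DSi on day 3 (1), 3 on day 6 (5), 0 on day 8 (6) and 5 on day 11 (10), 10 in NC day 11 against day 0 (19) and 1 in day 1 against day 0 (0). The day 3 count was also 0 with the authors' deposited values, without background correction, without the detection filter, with only the 2 groups in the fit, and with median scaling over the probes detected on all arrays, which was added after seeing the data. The day 8 count of NC against DSi was 3 without background correction and 3 without the detection filter. In the authors' deposited values the calls of RAB27A, MLPH, HPS1 and ATP7A were lost in BE against NC on day 11, those of MLPH, HPS1 and LYST in BE against DSi on day 11, and that of CTSA in BE against DSi and, with ATP6V0D1, in NC against DSi on day 8. RAB38 lost its call in NC against DSi on day 11, DTNBP1 and LYST theirs in NC, RAB27A and LYST in BE, and RAB27A, AP3B1 and AP1S2 in DSi against day 0. Leaving out 1 replicate at a time, the counts ran from 12 to 15 in BE against NC on day 11, 0 to 0 on day 8, 13 to 18 in BE day 11 against day 8, 17 to 20 and 6 to 9 in BE against DSi on days 11 and 8, 0 to 1, 4 to 5, 1 to 4 and 6 to 11 in NC against DSi on days 3, 6, 8 and 11, 0 to 0 in day 1 against day 0, 21 to 24, 13 to 15 and 15 to 16 in BE, NC and DSi day 11 against day 0, and 5 to 7 for the change of the BE to NC difference. With the replicate number as a block, 17 genes passed in BE against NC on day 11, and all 154 gene calls were kept under this pairing. Scaling moved the balance of calls over all genes: the share of calls that were higher was 53.5% in BE against NC on day 11 and 66.6% after median scaling, 67.3% and 45.0% on day 8, 51.7% and 81.3% in BE day 11 against day 8, 49.9% and 73.5% in BE against DSi on day 11, 49.3% and 26.6% on day 8 (59.4% over detected probes), 55.5% and 42.9% in NC against DSi on day 3, 50.1% and 33.6% in DSi day 11 against day 0, 54.7% and 9.74% in day 1 against day 0 (69.5% over detected probes), and 46.4% and 66.3% for the change of the BE to NC difference (30.3% over detected probes). The median of all genes of a comparison lay between -0.16 and 0.21 with median scaling and between -0.25 and 0.27 over detected probes, against -0.02 to 0.00 as reported. Non-member genes were fitted under the main settings only. Dim genes (HEXA, LYST, ATP7A) sit near background, which limits their differences.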
